A study of Homo sapiens with 4 samples.

Results

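The brush border peptidases and phosphatase are 10 genes chosen by name: ANPEP, DPP4, MME, ENPEP, GGT1, MEP1A, MEP1B and DPEP1, which encode peptidases, ALPL, which encodes a phosphatase, and VIL1, which encodes an actin-bundling protein of microvilli. They are 10 of the 25992 gene names on the array and are read by 13 of its 34127 probes that are not controls. Gene expression was measured in human proximal tubular cells (HPTCs) on 1-colour Agilent arrays, a pair for each of the cell lines HK-2 and RPTEC/TERT1 (n = 2, each), called array 1 and array 2 of a line after the replicate numbers in the labels. HK-2 is a human proximal tubular line immortalised with papillomavirus genes, and RPTEC/TERT1 is a human renal proximal tubular line immortalised with telomerase. HK-2 cells were grown in a keratinocyte medium with serum, and RPTEC/TERT1 cells in a mixed medium with hormones. All cells were then kept without serum and supplements for 24 h and stimulated for 24 h with the cytokine IL-1β (10 ng/mL) together with the SGLT2 inhibitor empagliflozin (Empa, 500 nM). All 4 arrays carry both agents, so no effect of either can be read from them, and arrays of unstimulated cells and of cells given IL-1β or Empa alone were not analysed here. Each label stands for 1 cell line, and the methods state biological duplicates.

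The brush border is the dense layer of microvilli on the luminal side of the proximal tubule. Ectopeptidases anchored in it face the filtrate and cut filtered peptides and glutathione into amino acids and dipeptides that the cell can take up. They also end the action of hormones and vasoactive peptides, and the proteins are widely used as markers of a differentiated proximal tubule.

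The arrays did not sort by their labels, which bears on every value below. Across the 16468 genes tested, HK-2 array 1 correlated with RPTEC/TERT1 array 2 at r = 0.983 (Pearson) and with HK-2 array 2 at 0.847. HK-2 array 2 correlated with RPTEC/TERT1 array 1 at 0.975. Which arrays carry which line was not tested, and cell line names below are those of the labels. From 59.18% to 64.89% of the spots on each array were well above background, a mark that the scanner software sets where a spot exceeds its local background by 2.6 background SDs. The log2 of a signal over its array's 75th percentile is called the level, so that 0 is that percentile. Levels below -5.37 were set to that common floor, and probes repeated 10 times on an array had a median SD of 0.0813 to 0.139 on the log2 scale. No member probe was saturated or marked as an outlier.

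Of the 10 members, 3 were well above background on all 4 arrays (DPP4, MME and GGT1), 2 on 2 arrays (ANPEP and ENPEP) and 5 on none (MEP1A, MEP1B, DPEP1, ALPL and VIL1). Over all gene names, 53% were well above background on all 4 arrays and 29.9% on none. ANPEP, ENPEP and DPP4 had the widest ranges among the members. On all 5 detected members the arrays of 1 label differed from each other by more than the label means did.

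ANPEP encodes aminopeptidase N, which removes neutral residues from the amino end of peptides and is among the most abundant proteins of the brush border. It was read by 1 probe, A_23_P88626, designed on NM_001150. The probe lies at chr15:90333766-90334236 of GRCh37 on the minus strand, a span of 471 bases for a probe of 60 bases. Its sequence is shown because the widest difference among the members rests on it alone.
ANPEP probe: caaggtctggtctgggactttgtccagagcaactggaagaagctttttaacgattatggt
The processed signal of ANPEP was 554 on HK-2 array 1, 0.0557 on HK-2 array 2, 6.24 on RPTEC/TERT1 array 1 and 592 on RPTEC/TERT1 array 2, in linear scanner units. As a share of the 75th percentile this was 140.9% and 138.2% on HK-2 array 1 and RPTEC/TERT1 array 2, and 0.00745% and 1.28% on HK-2 array 2 and RPTEC/TERT1 array 1. Each label thus held 1 array with a bright ANPEP spot and 1 array on which it was not well above background. HK-2 array 1 was at least 102-fold higher than HK-2 array 2, and RPTEC/TERT1 array 2 was at least 108-fold higher than RPTEC/TERT1 array 1. These bounds take, for the dim array, the higher of the spot's own signal and the lowest signal well above background there, and they have no replicate behind them. The bright arrays differed from each other by 1.02-fold, which is within the software's own error of a spot of this brightness (0.14 on the log2 scale). The 2 dim spots were not alike in 1 respect: the software marked that on RPTEC/TERT1 array 1 as positive and significant, and 4 of the 153 negative control spots were brighter than it, while 22 of 153 were brighter on HK-2 array 2. A detection pattern like that of ANPEP was held by 465 of 25992 gene names (1.79%).

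ENPEP encodes aminopeptidase A, which removes acidic residues from the amino end and converts angiotensin II to angiotensin III. It was read by 1 probe, A_33_P3411338, at chr4:111484354-111484413 of GRCh37 on the plus strand, designed on NM_001977. The processed signal of ENPEP was -4.11 on HK-2 array 1, 189 on HK-2 array 2, 90.5 on RPTEC/TERT1 array 1 and -2.46 on RPTEC/TERT1 array 2, where a negative value is a spot dimmer than its estimated background. The bright spots reached 25.2% of the 75th percentile on HK-2 array 2 and 18.5% on RPTEC/TERT1 array 1. ENPEP was therefore well above background on exactly those arrays where ANPEP was not. HK-2 array 2 was at least 10.4-fold higher than HK-2 array 1, and RPTEC/TERT1 array 1 was at least 13-fold higher than RPTEC/TERT1 array 2. The bright arrays differed by 1.36-fold, or 0.45 on the log2 scale, against a software error of 0.15 for each spot. The local background of the bright spot on HK-2 array 2 was marked as an outlier. The pattern of ENPEP was held by 1051 of 25992 gene names (4.04%).

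The regions just upstream of the annotated starts of ANPEP and ENPEP are shown because these genes were detected on opposite arrays. They were taken from RefSeq on GRCh38.p14, whose coordinates are not those of the probes, and run 5′ to 3′ on the gene's strand over the 250 bases before each start. ANPEP has 2 annotated starts in this table and ENPEP has 1.
ANPEP, chr15:89806629-89806878, minus strand: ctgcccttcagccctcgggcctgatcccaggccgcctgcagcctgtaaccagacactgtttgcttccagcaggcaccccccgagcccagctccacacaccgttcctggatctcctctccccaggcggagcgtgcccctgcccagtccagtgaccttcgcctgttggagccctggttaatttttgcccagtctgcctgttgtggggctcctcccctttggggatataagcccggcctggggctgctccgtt
ANPEP, chr15:89814853-89815102, minus strand: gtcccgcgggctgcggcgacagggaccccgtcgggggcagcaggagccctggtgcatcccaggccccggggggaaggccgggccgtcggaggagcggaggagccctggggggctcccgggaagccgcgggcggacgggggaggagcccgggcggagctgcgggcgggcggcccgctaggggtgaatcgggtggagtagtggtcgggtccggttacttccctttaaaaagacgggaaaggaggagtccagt
ENPEP, chr4:110475905-110476154, plus strand: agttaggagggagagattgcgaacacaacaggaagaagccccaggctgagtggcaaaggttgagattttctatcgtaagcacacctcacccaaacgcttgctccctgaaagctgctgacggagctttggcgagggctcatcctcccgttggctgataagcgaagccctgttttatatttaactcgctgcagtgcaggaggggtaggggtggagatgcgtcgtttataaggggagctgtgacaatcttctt
The share of G and C was counted over windows of 300 bases, from 250 before to 50 after each start. It was 65.3% at the ANPEP start shown in the upper line, 75% at the other ANPEP start and 53.7% at the ENPEP start, beside 57.5% over the 35116 windows of all genes in the table. The values as used here do not tell the starts of ANPEP apart, and whether any of these windows acts in these cells was not tested.

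DPP4 encodes dipeptidyl peptidase 4, which removes dipeptides ending in proline or alanine from peptides such as the incretins and is the target of the gliptin drugs. Its probe, A_33_P3287223, lies at chr2:162848986-162849045 of GRCh37 on the minus strand and was designed on NM_001935. The processed signal of DPP4 was 2715 on HK-2 array 1, 1675 on HK-2 array 2, 1212 on RPTEC/TERT1 array 1 and 2342 on RPTEC/TERT1 array 2. Scaled to the array, these gave levels of 2.79, 1.16, 1.31 and 2.45 in the same order. DPP4 was well above background on every array, and its level was higher on the arrays with a bright ANPEP spot than on the other 2. HK-2 array 1 was 3.08-fold higher than HK-2 array 2, and RPTEC/TERT1 array 2 was 2.2-fold higher than RPTEC/TERT1 array 1. The difference between HK-2 array 2 and RPTEC/TERT1 array 1 was 0.15 on the log2 scale, about the software error of a spot (0.14). That between HK-2 array 1 and RPTEC/TERT1 array 2 was 0.34.

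**Figure D1:**
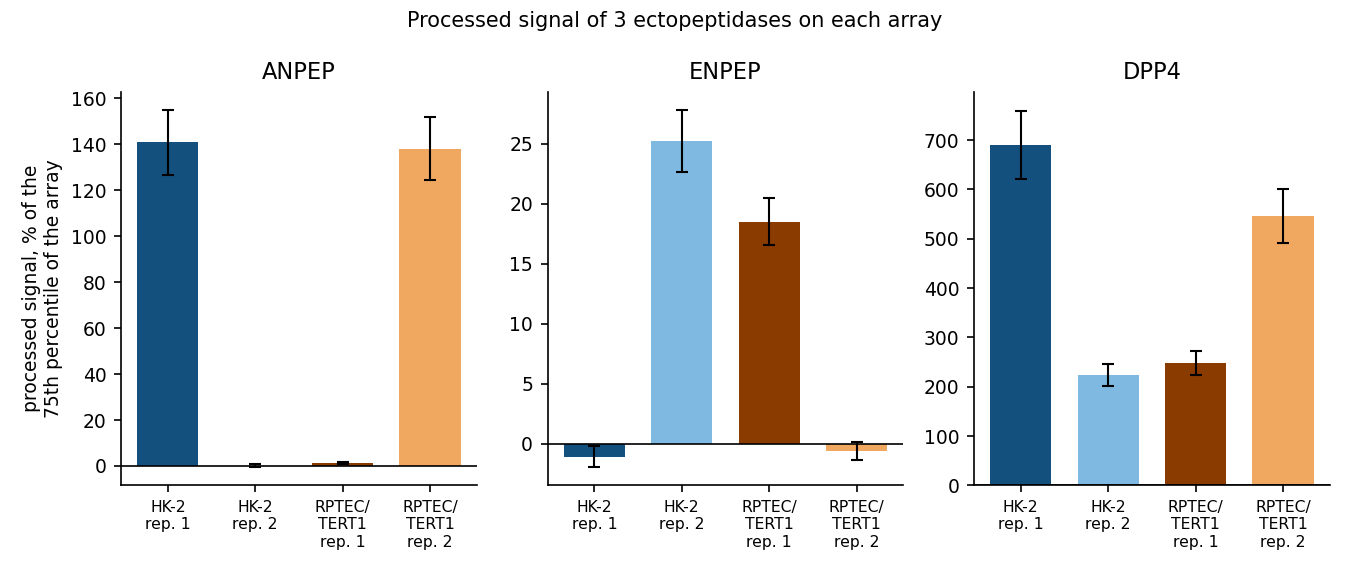
Processed signal of ANPEP, ENPEP and DPP4 as a percentage of the 75th percentile of each of the 4 arrays, 1 bar per array, on linear axes that differ between the genes. Error bars are the software's error of the spot, not a replicate spread, and each label holds 1 bright and 1 dim array for ANPEP (140.9% and 138.2% on the bright ones) and for ENPEP (25.2% and 18.5%).

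MME encodes neprilysin, a metallopeptidase that degrades natriuretic peptides, enkephalins and other small peptides. Its 3 probes, all on chr3 of GRCh37 and all designed on NM_007289, did not give the same picture. The most upstream probe, A_33_P3290707 at chr3:154802056-154802115, had levels of -2.62, -2.65, -2.90 and -2.58 on HK-2 array 1, HK-2 array 2, RPTEC/TERT1 array 1 and RPTEC/TERT1 array 2. It was well above background on all 4 arrays and spanned 1.25-fold. The probes 96.2 kb and 98.7 kb further on were well above background on HK-2 array 2 and RPTEC/TERT1 array 1 and on neither of the others. A_33_P3370094 (chr3:154898216-154898275) had levels of -5.02 and -4.61 on those arrays, close to the floor. A_24_P260101 (chr3:154900750-154900809) had -4.54 and -3.25, and RPTEC/TERT1 array 1 was 2.46-fold higher than HK-2 array 2, at least 4.37-fold higher than HK-2 array 1 and at least 4.16-fold higher than RPTEC/TERT1 array 2. By this mark alone, the downstream probes of MME followed the detection pattern of ENPEP, and the upstream probe did not. Their spots on the other arrays were dim but marked as positive and significant, unlike the dim spots of ENPEP. On RPTEC/TERT1 array 2 they reached 177.5% (A_24_P260101) and 111.3% (A_33_P3370094) of the lowest signal well above background. For A_33_P3370094, HK-2 array 2 was at least 1.28-fold higher than HK-2 array 1. The mean of the 3 probes was -4.45, -4.07, -3.59 and -4.42 in the same order of arrays. On HK-2 array 1 and RPTEC/TERT1 array 2 this mean is set in part by the floor. Exon and UTR annotation of GRCh37 was not used here, so the part of the transcript that each probe reads is not given.

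GGT1 encodes gamma-glutamyltransferase, which opens the degradation of extracellular glutathione. Its 2 probes start 9 bases apart on chr22 of GRCh37, at chr22:25023871-25023930 (A_24_P178175) and chr22:25023862-25023921 (A_23_P154986), and share 51 aligned bases that differ at 2 positions. They are shown because they overlap almost wholly and still ranked the arrays differently. Capitals mark the bases that differ.
A_24_P178175: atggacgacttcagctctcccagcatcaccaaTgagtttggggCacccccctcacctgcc
A_23_P154986: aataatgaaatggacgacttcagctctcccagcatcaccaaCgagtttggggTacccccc
Counted from the 5′ end of A_24_P178175, the differences are T33C and C44T, with the base of A_24_P178175 given before the position. The levels of A_24_P178175 were -0.36, -0.10, -0.07 and 0.28 on HK-2 array 1, HK-2 array 2, RPTEC/TERT1 array 1 and RPTEC/TERT1 array 2. Those of A_23_P154986 were -1.41, -1.02, -0.64 and -1.58. RPTEC/TERT1 array 2 was the highest array on A_24_P178175 and the lowest on A_23_P154986. All 8 spots were well above background, and the local background of A_23_P154986 on HK-2 array 2 was marked as an outlier. The human gamma-glutamyltransferase family holds near-identical copies on the same chromosome arm, so which of them each probe reads is uncertain, and the GGT1 values are given with that limit. The mean of both probes was -0.88, -0.56, -0.35 and -0.65, a range of 0.53, the smallest of the 5 members detected when probes were averaged. Alone, A_24_P178175 spanned 0.639 and A_23_P154986 0.946, while the upstream MME probe spanned 0.317.

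**Figure D2:**
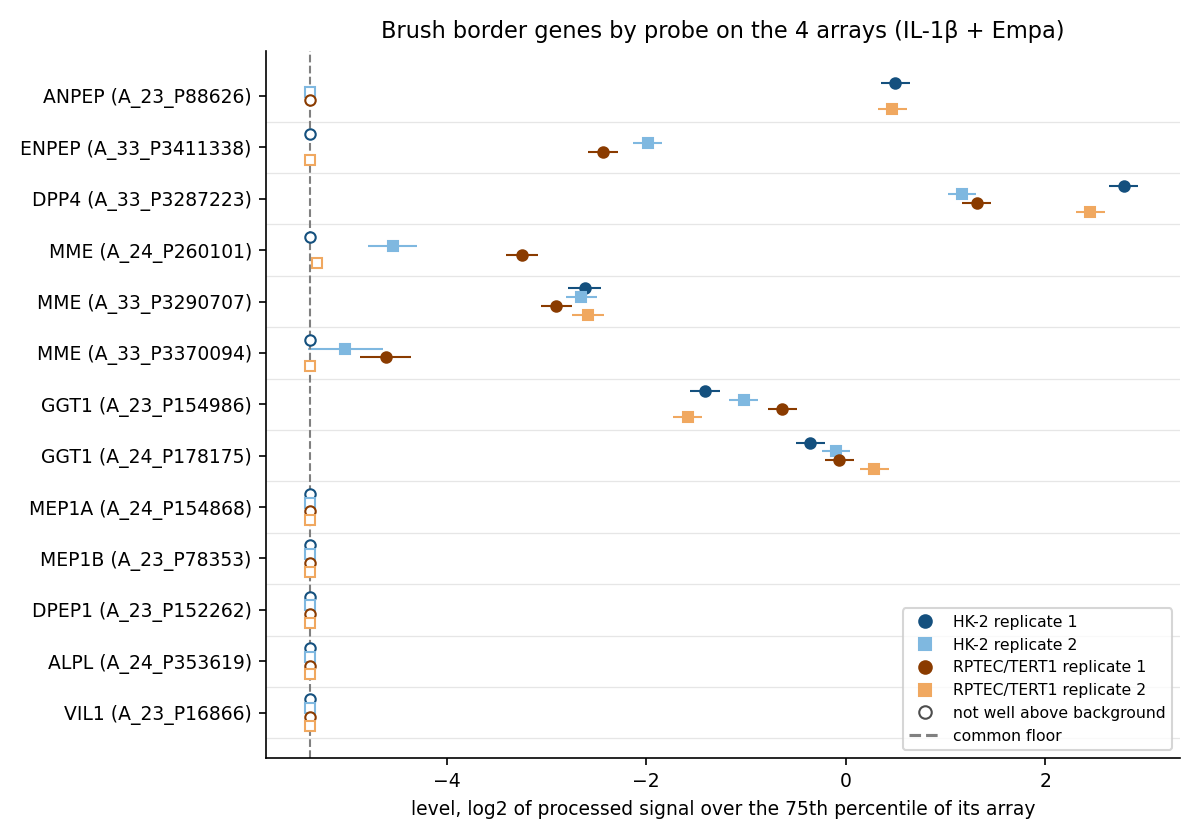
Level (log2 of processed signal over the 75th percentile of the array) of the 13 member probes on the 4 arrays, with circles for replicate 1 and squares for replicate 2 of each label. Filled symbols are well above background with the software's error as bars, open symbols are not, and the dashed line is the floor of -5.37, where values have no order. The 5 probes at the bottom lie at the floor on all arrays, and levels are to be compared along a row, not between rows.

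The remaining peptidases were not well above background on any array. MEP1A and MEP1B encode the alpha and beta subunits of meprin, an astacin metalloprotease of the brush border. The signal of MEP1A (chr6:46803182-46803241) was 5.64 on HK-2 array 1 and 0.672, -0.685 and -0.589 on HK-2 array 2, RPTEC/TERT1 array 1 and RPTEC/TERT1 array 2. The spot on HK-2 array 1 was marked as positive and significant, and 7 of 153 negative controls on that array were brighter. MEP1B (chr18:29795127-29795186) was negative on all 4 arrays, from -6.40 to -3.83, and 109 to 152 of the 153 negative controls were brighter. DPEP1 (chr16:89703894-89703953) encodes a dipeptidase that splits cysteinylglycine, the product of GGT1, and leukotriene D4, and had signals of -2.84, 2.78, 3.04 and -0.601. None of its spots was marked as positive and significant.

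ALPL encodes the tissue-nonspecific alkaline phosphatase, a membrane-anchored enzyme of kidney, liver and bone. Its probe (chr1:21903084-21903884, plus strand, a span of 801 bases) had signals of 4.98, 9.92, 10.0 and 6.89 on HK-2 array 1, HK-2 array 2, RPTEC/TERT1 array 1 and RPTEC/TERT1 array 2. ALPL was the only member without a spot well above background whose spots were all marked as positive and significant. From 3 to 10 of the 153 negative controls were brighter, and the signals were 52.43% to 227.9% of the lowest signal marked as well above background on the same array. VIL1 (chr2:219314095-219314154) encodes villin, which bundles and caps the actin core of microvilli. Its signals were -3.02, -0.0927, -1.63 and -3.53, and 23 to 103 of the 153 negative controls were brighter. A signal at background bounds the RNA level on these arrays and does not show that the transcript was absent.

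**Figure D3:**
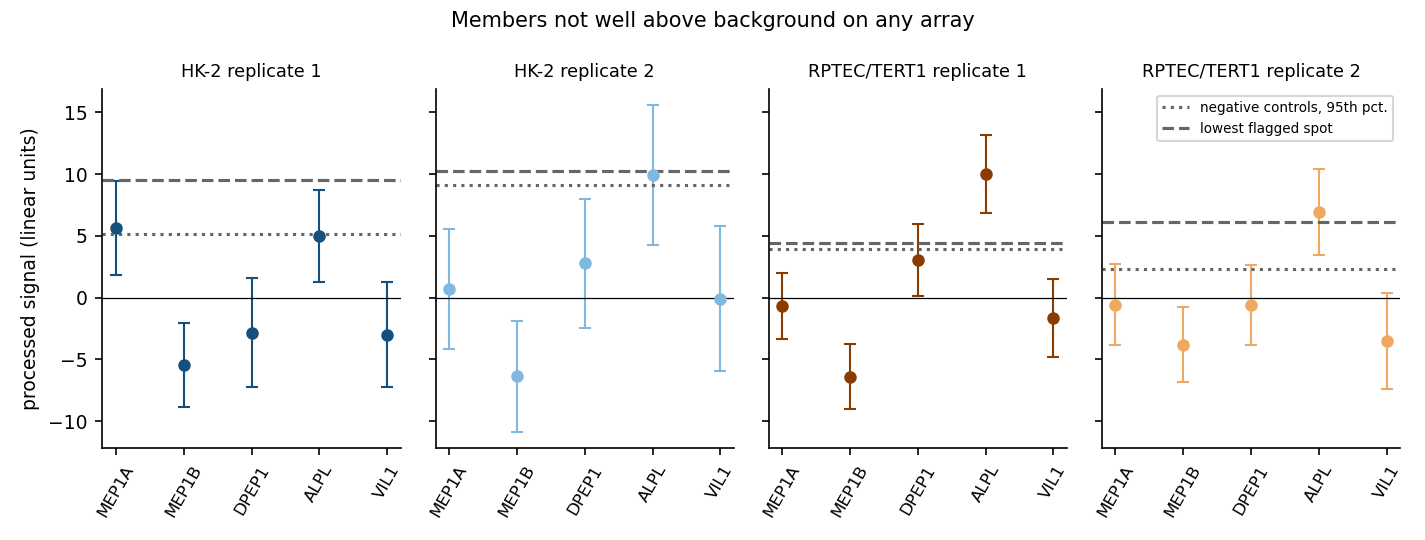
Processed signal in linear scanner units of the 5 members that were not well above background, 1 panel per array, with the software's error as bars. The dotted line is the 95th percentile of the 153 negative control spots and the dashed line the lowest spot marked as well above background. ALPL is the member that lies highest against these lines on HK-2 array 2 and on both RPTEC/TERT1 arrays, with 10.0 on RPTEC/TERT1 array 1, and MEP1B is below 0 on all arrays.

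The design allows 1 comparison, HK-2 against RPTEC/TERT1 under the same stimulation. Levels were compared with limma over 16468 genes, those marked well above background on 2 or more of the arrays, a filter that 5 of the 10 members passed, ANPEP and ENPEP each through 1 array of each label. None of the 5 was called, and over all genes 0 (0%) had an adjusted p under 0.05 and 23 (0.14%) an unadjusted p under 0.05, none of them a member. In limma, ANPEP differed by 0.01 (SE 2.86, adjusted p = 1), with means of -2.44 ± 4.15 on HK-2 and -2.45 ± 4.13 on RPTEC/TERT1 (SD, n = 2, each). ENPEP differed by 0.22 (SE 1.59, adjusted p = 1 in limma), with means of -3.68 ± 2.39 and -3.90 ± 2.08 (SD, n = 2, each). Both rest on floor values and are no measure of the true size. DPP4 differed by 0.09 (SE 0.797, adjusted p = 1 in limma), with means of 1.98 ± 1.15 and 1.88 ± 0.805 (SD, n = 2, each). MME and GGT1 differed by -0.26 (SE 0.523) and -0.22 (SE 0.444), also with an adjusted p of 1 in limma. The MME value is set in part by probes at or near the floor on HK-2 array 1 and RPTEC/TERT1 array 2. Its only probe well above background on all arrays gave 0.107. The standard errors are on the log2 scale and would hide large differences for ANPEP and ENPEP, and smaller ones for the other members. These values therefore do not show that the lines were alike. The levels of the 2 labels overlapped for all 5 members, while they did not overlap for 7.17% of the genes tested. The median difference was 0.01 over the 5 members and 0.02 over all genes.

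The difference turned over between the replicate numbers. In replicate 1, ANPEP was 5.87 higher on HK-2 than on RPTEC/TERT1 on the log2 scale with floored values, and in replicate 2 the difference, HK-2 minus RPTEC/TERT1, was -5.84. For DPP4 it was 1.48 and -1.29, and for ENPEP -2.94 and 3.39. These 3 of 5 members passed 2-fold in both replicates with opposite signs, as did 27.4% of all genes tested. MME had -0.87 and 0.35, set in part by the floor, and GGT1 had -0.53 and 0.09. The replicate number is also the scan day, so scan and replicate cannot be told apart.

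**Figure D4:**
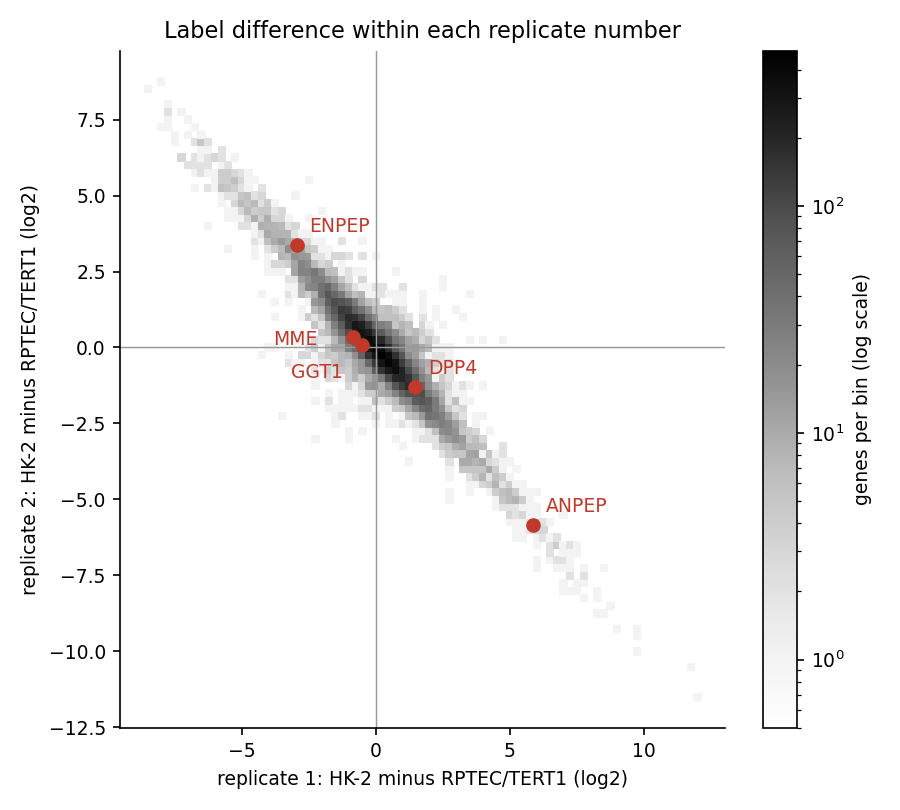
Difference in level, HK-2 minus RPTEC/TERT1 on the log2 scale, in replicate 1 (x axis) and replicate 2 (y axis) for the 16468 genes tested, counted in grey bins on a log colour scale, with the 5 members in red. The genes run from upper left to lower right, and ANPEP (5.87 and -5.84) and ENPEP (-2.94 and 3.39) lie towards opposite ends.

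The 6 possible pairs of arrays fell the same way for the members and for all genes. Between HK-2 array 1 and RPTEC/TERT1 array 2, the median absolute difference of the 5 members was 0.03 and none passed 2-fold. Over all genes this median was 0.216, and 4.9% passed 2-fold. The 0.03 is that of MME, set in part by the floor, and ENPEP is at 0 because both arrays are at the floor. Between HK-2 array 2 and RPTEC/TERT1 array 1 the median of the members was 0.21 with none past 2-fold, beside 0.301 and 6.78% over all genes. There ANPEP is at 0 for the same reason. In each of the other 4 pairs 3 members passed 2-fold, with median differences of 1.14 to 1.62, beside 0.669 to 0.791 over all genes. In the pair of HK-2 arrays 34% of all genes passed 2-fold and in the pair of RPTEC/TERT1 arrays 40.4%. HK-2 array 1 against RPTEC/TERT1 array 1 gave 36% and HK-2 array 2 against RPTEC/TERT1 array 2 33.7%. The range over the 4 arrays passed 2-fold for 3 of the 5 members, while 52.9% of all genes did. Its median was 1.62 over the members and 1.05 over all genes. With the deposited log2 values the range was narrower, 3.88 for ANPEP and 1.80 for ENPEP against 5.87 and 3.39 here.

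**Figure D5:**
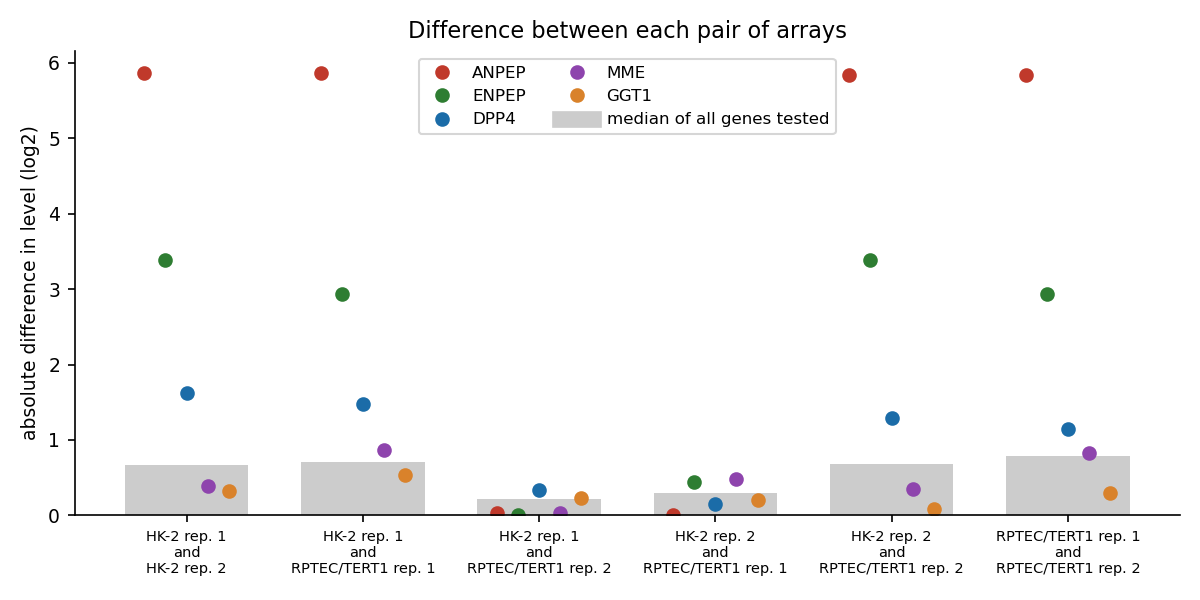
Absolute difference in level (log2) of the 5 detected members between each of the 6 pairs of arrays, as points, with the median of all 16468 genes tested as grey bars. ANPEP between HK-2 array 2 and RPTEC/TERT1 array 1, and ENPEP between HK-2 array 1 and RPTEC/TERT1 array 2, are at 0 because both arrays are at the floor. In the 4 pairs with 1 dim array, the ANPEP points (5.84 to 5.87) and the ENPEP points are set by the floor and are not measured differences.

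Likeness among the members was measured as the largest gap over the 4 arrays between levels centred on each gene's mean. It was 0.29 between MME and GGT1 and 4.73 between ANPEP and ENPEP, the smallest and the largest of the 10 pairs at this floor. The gaps of ANPEP and ENPEP, and in part those of MME, are set by the floor on their dim arrays, so no further order is read from them.

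Other genes of the brush border were taken from lists. Of these, limma tested 4 of 12 other ectoenzymes, 9 of 13 microvillus scaffold genes and 11 of 18 relatives of the members. None of those tested had an adjusted or unadjusted p under 0.05 in limma, beside 0 (0%) and 23 (0.14%) of all 16468 genes. Of 12 other brush border ectoenzymes on the array, 3 were well above background on all arrays, 2 on some and 7 on none. Those on none include XPNPEP2, FOLH1, TREH, MGAM, ENPP3 and AOC1. Among those on some, VNN1 had no value on HK-2 array 1 and RPTEC/TERT1 array 2, where its spots were left out as outliers. NT5E, the ectonucleotidase that makes adenosine from AMP, had levels of 1.55, -0.97, -1.27 and 1.52 on HK-2 array 1, HK-2 array 2, RPTEC/TERT1 array 1 and RPTEC/TERT1 array 2. It was high on the arrays with a bright ANPEP spot. TMEM27, the membrane protein collectrin, had -3.71, -4.07, -4.58 and -3.71. PRSS8, the membrane-anchored protease prostasin, was singled out after its values were seen, with -3.97, 2.38, 2.42 and -4.38, and was high where ENPEP was detected.

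Of 13 genes of the microvillus scaffold, 7 were well above background on all arrays and 3 on none (MYO1A, MYO7B and CDHR5). EPS8, which caps and bundles actin, had levels of 1.93, 1.65, -0.22 and 3.31, and PDZK1, a scaffold of apical transporters, had -1.34, 1.52, 1.04 and -0.86 in the same order of arrays. Of 18 relatives of the members, 11 were well above background on all arrays and 4 on none (FAP, MMEL1, DPEP2 and GGT6). LNPEP, the aminopeptidase that cleaves oxytocin, had 0.50, -1.78, -1.15 and -0.14, and DPEP3, a dipeptidase, had 2.63, 1.99, 1.18 and 3.34.

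Sets of cell type markers also differed in level between arrays of 1 label. Of 14 proximal tubule markers, 8 were well above background on all arrays and 3 on none: CUBN, the endocytic receptor cubilin, SLC22A6, an organic anion transporter, and HNF4A, a transcription factor. Their summed level was 22.4, 8.45, 11.4 and 22.7 times the 75th percentile on HK-2 array 1, HK-2 array 2, RPTEC/TERT1 array 1 and RPTEC/TERT1 array 2. This sum does not stand for every marker. The transcription factor PAX8 (levels of 4.13, 1.61, 2.79 and 3.73) gave the largest term of the sum on each array and ran with it, whereas CDH6, a kidney cadherin, ran the other way (-3.26, 0.27, 0.86 and -3.49), as did GATM, an enzyme of creatine synthesis (-1.59, -1.16, -1.08 and -1.88). The 5 general epithelial markers summed to 84.2, 36.7, 35.2 and 97 in that order, and 4 of them were well above background on all arrays. Each of the 5 was higher on HK-2 array 1 and RPTEC/TERT1 array 2 than on the other arrays. KRT19, a keratin, gave the largest term of the sum on every array (levels of 5.88, 4.33, 4.53 and 6.11). The 7 fibroblast markers summed to 0.186, 1.97, 1.5 and 0.178 in that order. COL1A2, COL3A1, PDGFRA and PDGFRB were well above background on no array. DCN and LUM, proteoglycans of connective tissue, were so on HK-2 array 2 and RPTEC/TERT1 array 1. Each gene at the floor adds 0.0242 to a sum. The 0.186 and 0.178 are therefore set mostly by the floor, as in part are the endothelial and leukocyte sums below. The summed level of 8 markers of other nephron segments ranged from 1.14 to 1.79 (SLC12A3, AQP2 and CALB1 well above background on no array). Within it SLC12A1, the cotransporter of the thick ascending limb, was well above background only on HK-2 array 1 and RPTEC/TERT1 array 2 (-0.51 and -0.10), as ANPEP was, while PODXL, a podocyte glycoprotein, was higher on the other arrays (-1.62, -0.42, -0.56 and -2.18 in the order above). PAX8, GATM, SLC12A1, DCN and LUM were singled out after their values were seen. That of 5 endothelial markers ranged from 0.22 to 0.419 (VWF, KDR and TEK on none) and that of 6 leukocyte markers from 0.276 to 0.471 (FCGR3A among those on none). The part of any of these in the ANPEP, ENPEP and DPP4 values was not tested, and in bulk RNA fewer cells of a type and less RNA per cell cannot be told apart.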

How the data were processed

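The sample labels gave the groups, replicate numbers, doses and times. They name the RNeasy kit for RNA isolation, whereas the methods name the innuPREP kit. Members and gene lists were chosen with earlier results of these data known, and genes outside the members are named by the widest range in their list among those well above background on all 4 arrays, unless stated otherwise.

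The authors deposited linear spot intensities from Agilent Feature Extraction 9.5.3.1, read per the file headers in 1 channel at 5 µm per pixel, with the background subtracted and no scaling between arrays. A second deposited table holds log2 values of these spots, and the steps behind it are not given in the sources used here. Its medians were 8.33 and 7.14 on the HK-2 arrays and 6.75 and 6.72 on the RPTEC/TERT1 arrays. Within each array its ranks followed the spot intensities (Spearman 0.992 to 0.995), and its scaling and centring stay unknown. With it the differences between label means of ANPEP, DPP4 and MME changed sign. This second table served as an alternative.

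Control and outlier spots were left out. Each signal was scaled to its array's 75th percentile, raised to 0.0242 of that percentile where lower, and converted to log2. For this floor the lowest scaled signal well above background was found on each array, and the highest of the 4 was used. Repeated spots were averaged within a probe, and probes within a gene, leaving out probes that were well above background on no array where the gene had another. Labels were compared with limma 3.58.1 (lmFit and eBayes, R 4.3.3), with Benjamini-Hochberg adjustment at 0.05 over all 16468 genes. The fit was tested on simulated data with known changes. Probe positions are those of the files (GRCh37), and the transcripts of all 13 member probes matched the same symbol in RefSeq's gene table (GRCh38.p14), the source of names and upstream sequence. Some genes of the lists are not reported here by name. CPM and GGT2 were not found under those names. The alternatives were normexp correction (offset 50), the deposited log2 table, quantile scaling, other probe filters and summaries, the replicate number as a block and each array left out in turn.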

Additional observations from a re-analysis of the deposited data

Results flagged for a closer look

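For 3 members the difference between the labels, HK-2 minus RPTEC/TERT1 on the log2 scale, had opposite signs in replicates 1 and 2 and passed 2-fold in both. For ANPEP it was 5.87 in replicate 1 and -5.84 in replicate 2. For DPP4 it was 1.48 and -1.29. For ENPEP it was -2.94 and 3.39. With 1 array of each label in a replicate, the difference between the replicates was not tested, and the values of ANPEP and ENPEP rest on the floor on their dim arrays.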

How the results depend on the processing

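No alternative brought a gene or a member past an adjusted p of 0.05 in limma, and 3 members stayed well above background on all arrays run, with 4 if the positive and significant mark was used instead and 2 if every probe of the gene had to pass. With 2 arrays per label and labels that arrays did not follow, the small differences between label means changed sign often. With normexp correction they were -0.469 for ANPEP, -0.425 for DPP4, 0.902 for MME and 0.091 for GGT1, while that of ENPEP rose from 0.223 to 1.457 (SE 0.958) without being called. With the deposited log2 values they were -0.425 for ANPEP, -0.133 for DPP4 and 0.506 for MME, and 0.974 (SE 0.705) for ENPEP. For MME the filter on all 4 arrays, the brightest probe and the upstream probe A_33_P3290707 each gave 0.107. The cause of these changes was not tested, beyond the fewer probes that the MME settings use. Leaving out each array in turn gave -0.717 to 0.907 for DPP4, -0.676 to 0.158 for MME and -0.381 to -0.059 for GGT1. ANPEP (-2.905 to 2.947) and ENPEP (-1.247 to 1.916) have a value only where a dim array was left out, since they did not pass the filter without a bright one. In these fits a lone array is assumed to vary like the other label. Genes with an unadjusted p under 0.05 numbered 23, with 4 under normexp, 3 with the deposited values, 245 without a filter, 7 with the filter on all 4 arrays and 15 to 104 with an array left out.

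Same-numbered arrays deviated from their label means in opposite directions (correlation -0.81 across genes). With 2 arrays per label this restates the likeness of arrays across labels. Whether the replicate numbers mark true pairs was not tested. Taking the replicate number as a block left 0 genes called, and the unadjusted p was under 0.05 for 5. With the crossed pairing, added after the data were seen, the counts were 0 and 183. The range of MME over the arrays was 0.868, with 2.529 under normexp, 1.718 with the deposited values and 0.317 with the brightest probe. With the deposited values the range of ANPEP was 3.877 in place of 5.866 and that of ENPEP 1.8 in place of 3.385. Signals near background limit what can be said of the 5 undetected members and of the dim arrays of ANPEP and ENPEP.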
